A study of Anas platyrhynchos and Gallus gallus and Anas rubripes with 21 samples.

Results

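Sarcomere genes encode the contractile lattice of striated muscle. In the thin filament, actin is switched on by the troponin complex, in which the C subunit binds calcium, the I subunit inhibits and the T subunit anchors to tropomyosin. In the thick filament, myosin heavy chains carry light chains, and α-actinin and desmin hold the Z discs in place. These genes are characteristic of muscle fibres rather than of the sensory neurons and glia of a trigeminal ganglion, which lies in the head near muscles of the jaw and eye. The genes were chosen by symbol, with earlier results of these data known. The rule itself uses no level: *ACTA1*, *CKM*, *TNNT3*, *TNNI2*, *TNNC2*, *TNNC1*, *MYLPF*, *MYL1*, *DES* and *ACTN2*. Of these 10 symbols, 9 matched a row among the 20451 genes of the table, and *CKM*, the muscle creatine kinase gene, was not analysed here.

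The RNA came from whole trigeminal ganglia of late embryos, 3 birds in each of 7 species and 21 in all. Embryonic days were 25 to 26 in Pekin duck and Lesser Scaup, 21 to 22 in Black duck, 28 to 29 in Harlequin duck, 28 to 31 in Wood duck, 30 to 31 in Ruddy duck and 19 to 21 in Chicken. By the study's methods all embryos were taken after piercing the inner shell membrane, shortly before hatching, so a lower day is not in itself an earlier stage. Each gene has 1 value per species, the authors' mean RPKM (reads scaled to gene length and to the number of mapped reads) over the 3 birds, so no level below has an error between birds, and whether 1, 2 or 3 birds carried a high level cannot be read from it. An exact permutation test of 1 species against 6 cannot go below p = 0.143, and no test between species was run. Pan-neuronal and glial genes were abundant in all 7 species, with *STMN2*, a gene of growing and mature neurons, between 1275 and 1949 RPKM and *PMP22*, a myelin gene of Schwann cells, between 627 and 915 RPKM. In whole tissue, fewer cells of a type and less RNA per cell cannot be told apart.

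*MYL1* encodes the alkali light chain of fast myosin (duck gene 101797970, chicken gene 396470). Its level was 60.3 RPKM in Black duck, 23.1 RPKM in Harlequin duck and 18.1 RPKM in Ruddy duck, 4.30 RPKM in Chicken, 0.366 RPKM in Lesser Scaup, 0.186 RPKM in Pekin duck and 0.140 RPKM in Wood duck. The species thus fell into 3 high ducks, an intermediate chicken and 3 ducks in which the gene was close to 0. The other light chain of fast myosin, the regulatory *MYLPF* (chicken gene 776775), stood at 12.3 RPKM in Black duck and 4.66 RPKM in Harlequin duck, then 1.03 RPKM in Chicken, 0.908 RPKM in Ruddy duck and between 0.235 and 0.330 RPKM in Lesser Scaup, Wood duck and Pekin duck. Ruddy duck is here on the side of the low species. *MYLPF* is listed in the chicken annotation alone, and genes of that class lay lower in Ruddy duck in general, with a median log2 difference from the other 6 species of -0.59 (1335 genes), while the 9909 genes that both annotations hold had -0.17. The part of the annotation in the low *MYLPF* value was not tested.

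The 3 subunits of fast troponin followed *MYL1*. *TNNT3*, the T subunit (duck gene 101793837, chicken gene 395761), had 41.6 RPKM in Black duck, 15.0 RPKM in Ruddy duck, 13.4 RPKM in Harlequin duck, 3.61 RPKM in Chicken, 0.591 RPKM in Lesser Scaup, 0.231 RPKM in Pekin duck and 0.0579 RPKM in Wood duck. *TNNC2*, the calcium-binding C subunit of fast fibres (duck gene 101802822, chicken gene 396434), had 26.0 RPKM in Black duck, 7.36 RPKM in Ruddy duck, 5.36 RPKM in Harlequin duck, 1.48 RPKM in Chicken, and, in the low ducks, 0.491 (Pekin duck), 0.240 (Wood duck) and 0.159 RPKM (Lesser Scaup). In both genes, Black, Ruddy and Harlequin duck stood above all 4 others. *TNNI2*, the inhibitory subunit (duck gene 101793157, chicken gene 396386), was far lower per kilobase but had the same order at the top, with 2.79 RPKM in Black duck, 0.875 RPKM in Ruddy duck, 0.676 RPKM in Harlequin duck, 0.414 RPKM in Chicken and at most 0.0827 RPKM in the other ducks.

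*ACTA1*, the skeletal α-actin of the thin filament (duck gene 101802755, chicken gene 421534), reached 67.5 RPKM in Black duck, 30.4 RPKM in Harlequin duck and 24.9 RPKM in Ruddy duck. Elsewhere it stayed above 5 RPKM, with 10.4 (Chicken), 10.1 (Pekin duck), 9.30 (Lesser Scaup) and 5.98 RPKM (Wood duck). Actin genes are near-identical in sequence and their reads may be shared, which was not tested. *ACTA2*, the smooth muscle actin, had 9.38 RPKM in Black duck, the lowest of the 7 species, and 28.1 RPKM in Ruddy duck, the highest. *ACTN2*, the α-actinin of the Z disc (duck gene 101791061, chicken gene 396263), had 15.7 RPKM in Black duck, 4.62 RPKM in Harlequin duck, 3.44 RPKM in Ruddy duck, 1.01 RPKM in Chicken, and, in the low ducks, 0.510 (Pekin duck), 0.393 (Lesser Scaup) and 0.289 RPKM (Wood duck).

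**Figure D1:**
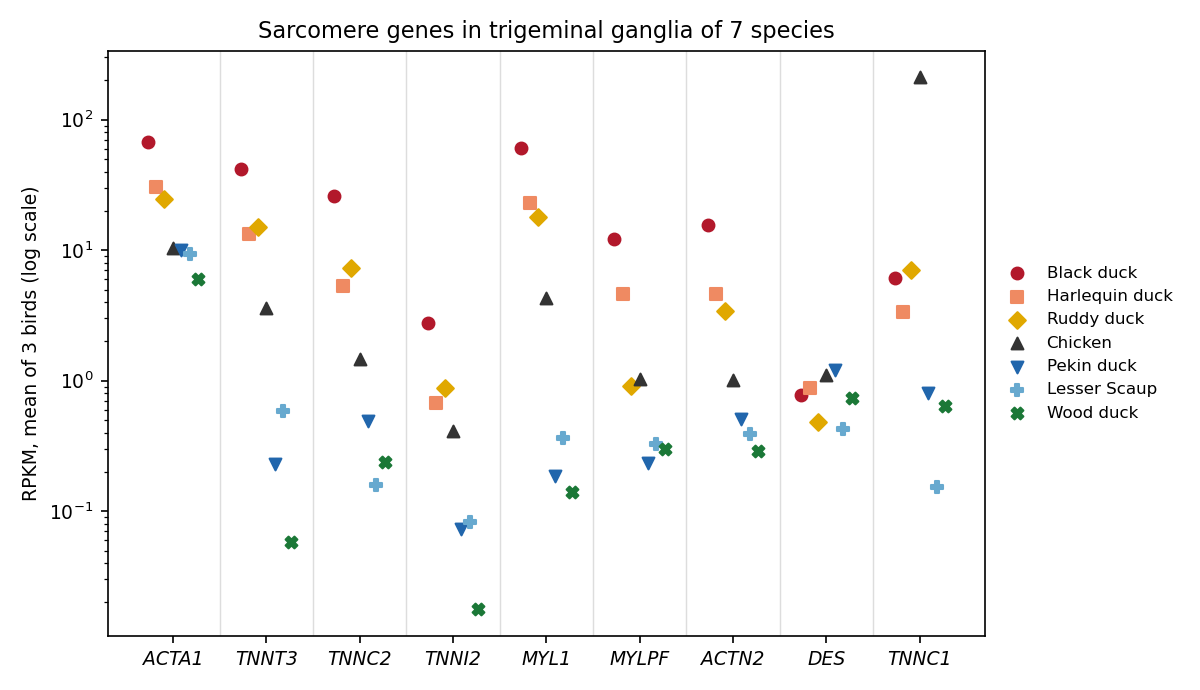
Level of the 9 sarcomere genes in each species. The y axis is RPKM on a log scale, each point is the mean of 3 birds of 1 species with no error available, and colours and shapes mark the species. Black duck is the highest point for 7 genes, *DES* is nearly level, and *TNNC1* is highest in Chicken at 211 RPKM.

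The remaining members, *DES* and *TNNC1*, had patterns of their own. *DES*, the gene of the intermediate filament desmin (duck gene 101789989, chicken gene 395906), lay between 0.425 RPKM in Lesser Scaup and 1.21 RPKM in Pekin duck, with 0.780 RPKM in Black duck, 0.884 RPKM in Harlequin duck and 0.480 RPKM in Ruddy duck. The duck gene is joined to *DES* in the table under a numbered symbol, and its identifier has no entry in the RefSeq annotation of the newer IASCAAS_PekinDuck_T2T assembly, so whether the duck values measure desmin is not known. *TNNC1*, the C subunit of troponin in slow and cardiac muscle (duck gene 101799009, chicken gene 396032), had 211 RPKM in Chicken, 7.05 RPKM in Ruddy duck, 6.15 RPKM in Black duck, 3.37 RPKM in Harlequin duck, and, in the low ducks, 0.810 (Pekin duck), 0.640 (Wood duck) and 0.154 RPKM (Lesser Scaup). Among the ducks alone it thus had the same 3 high species as the fast genes, while the chicken level was 30.0-fold that of Ruddy duck, the next.

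To put the species on one scale, log2(RPKM + 1) of each species was compared with its mean over the other 6, and a difference of at least 1 was counted as 2-fold. This scale understates the change of low genes. In Black duck 7 of the 9 members were at least 2-fold higher, where 2.02% of the 12497 genes averaging 1 RPKM or more were. In Harlequin duck 4 members were higher (*MYL1*, *TNNT3*, *MYLPF* and *ACTN2*), against 3.82% of all genes, and in Ruddy duck 3 (*MYL1*, *TNNT3* and *TNNC2*), against 5.96%. After median-ratio scaling of the species, and with quantile normalization, *ACTN2* fell short of 2-fold in Harlequin duck, and with quantile normalization it passed in Ruddy duck. In Chicken *TNNC1* alone was higher, against 12.9% of all genes, and in Pekin duck, Lesser Scaup and Wood duck none was, against 2.22%, 2.26% and 2.53%. On the low side, 6 members in Pekin duck, 6 in Lesser Scaup and 7 in Wood duck were at least 2-fold lower than the mean of the other species, where 1.02%, 1.07% and 2.73% of all genes were. Since the high ducks are part of that mean, the high and the low counts are not independent. All 9 members are counted here, and 7 averaged 1 RPKM or more across species, *TNNI2* and *DES* being lower. Because the set was chosen with earlier results of these data known, its counts beside the shares of all genes are descriptions and not tests.

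In the 3 high ducks the largest differences were those of *MYL1*, 3.91 in Black duck, 2.34 in Harlequin duck and 1.95 in Ruddy duck on the log2 scale. In Black duck, *TNNT3* followed with 3.56, *TNNC2* with 3.40, *ACTN2* with 2.88, *MYLPF* with 2.80, *ACTA1* with 2.30 and *TNNI2* with 1.52. The median over the 9 members was 2.80 in Black duck, 0.98 in Harlequin duck and 0.65 in Ruddy duck, beside a median over all genes of 0.08, 0.09 and -0.23. It was -1.19 in Pekin duck, -1.30 in Lesser Scaup, -1.55 in Wood duck and -0.20 in Chicken. Black duck is part of the mean against which the others are read, and without it 5 members in Ruddy duck were at least 2-fold higher in place of 3, with a median of 1.07, while the median in Harlequin duck was 1.57. The share of all genes without Black duck was not computed.

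**Figure D2:**
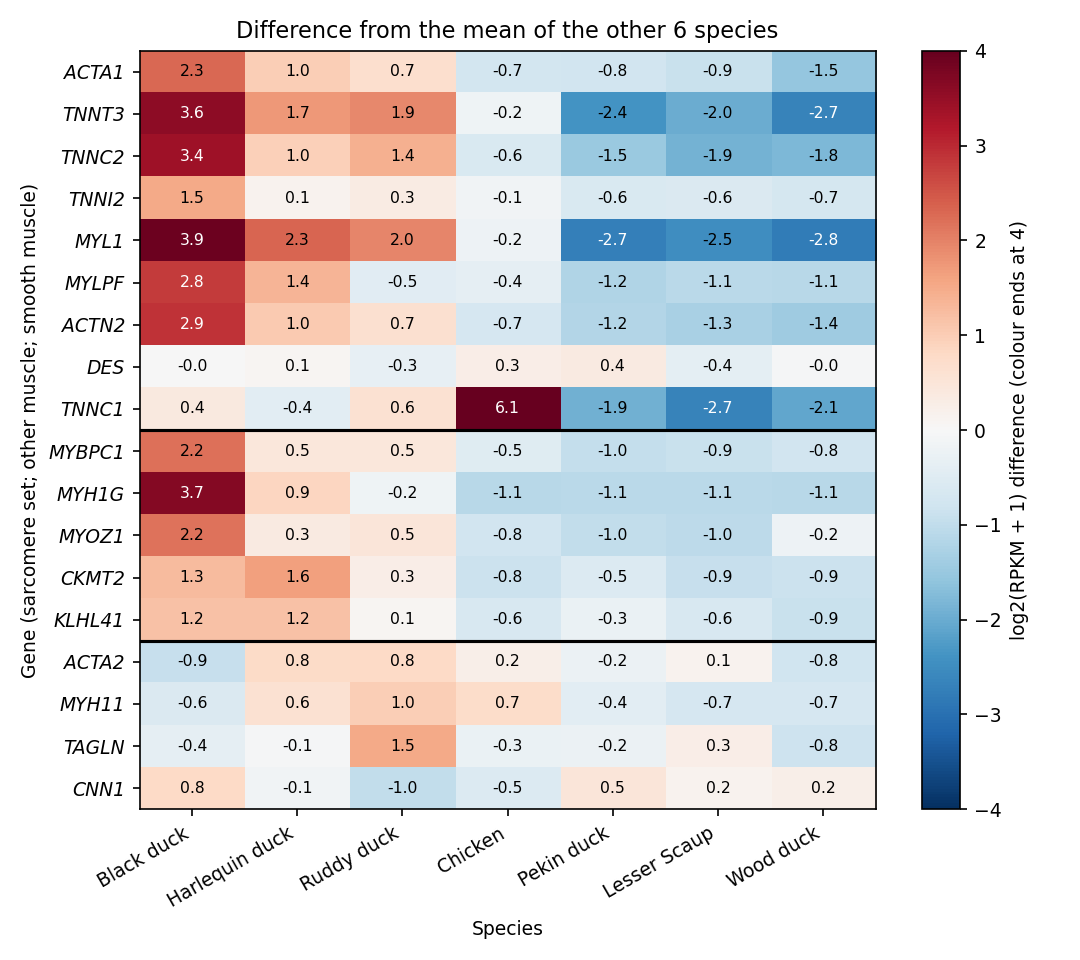
Difference in log2(RPKM + 1) of each species from the mean of the other 6, for the 9 sarcomere genes (top), 5 further striated muscle genes (middle) and 4 smooth muscle genes (bottom). Red is higher and blue is lower, and each cell is 1 species mean. In Black duck, 7 of the 9 top rows are at least 1, and the middle rows are 5 of the 8 further muscle genes, of 42, that pass this limit there. The other passing genes, *MB*, *MYOZ2* and *PVALB*, are not drawn, and *MYOZ2* and *PVALB* did not follow the 3 high ducks. Genes of the 42 that do not pass are not drawn either. The bottom rows are 4 of the 9 smooth muscle genes. Of these *ACTA2*, *MYH11* and *TAGLN* are below 0 in Black duck and *CNN1* is above 0. Among the smooth muscle genes not drawn, *LMOD1* and *ACTG2* are below 0 in Black duck, and *SMTN*, *MYLK* and *SYNPO2* are above 0.

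Across species the members varied together, with the exception of *DES* and, in Chicken, *TNNC1*. Setting those 2 aside, a choice made after their values were seen, Pearson's *r* of log2(RPKM + 1) across the 7 species lay between 0.870 and 0.997 for the 21 pairs among the other 7 members, with a median of 0.954. Over all 36 pairs of the 9 members the median was 0.899, and 30 were above 0. *DES* had an *r* between -0.13 and 0.07 with the 7 others. *TNNC1* had an *r* of 0.145 to 0.368 with them across the 7 species and of 0.700 to 0.935 across the 6 ducks. These are descriptions over a few related species, and all points of a species come from the same libraries. In 6 of the 9 members Black, Ruddy and Harlequin duck were the 3 highest species with no overlap with the other 4, a pattern held by 2.26% of all genes. Black duck was the highest species in 7 of 9, against 8.39% of all genes.

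The proportions among these 7 members could be compared between the 3 high ducks. The ratio of Black to Harlequin duck ranged from 2.22 in *ACTA1* to 4.85 in *TNNC2*, with a median of 3.11. The ratio of Black to Ruddy duck had a median of 3.33 and ranged from 2.71 in *ACTA1* to 4.55 in *ACTN2* with *MYLPF*, at 13.5, as the exception. *MYL1* made up 26.7%, 28.1% and 25.6% of their summed RPKM in Black, Harlequin and Ruddy duck and *ACTA1* 29.9%, 37.0% and 35.3%. In Pekin duck, Lesser Scaup and Wood duck *ACTA1* alone made up 85.4%, 82.9% and 85.2%, and *MYL1* at most 3.26%. The sum of the 7 was 226 RPKM in Black duck, 82.2 RPKM in Harlequin duck, 70.6 RPKM in Ruddy duck, 22.2 RPKM in Chicken and, in the low ducks, 11.8 (Pekin duck), 11.2 (Lesser Scaup) and 7.03 RPKM (Wood duck). Even in Black duck this was 0.0579% of the RPKM of all genes, and in Wood duck it was 0.00182%. With all 9 members Chicken and Black duck had close sums, 234 and 233 RPKM, but *TNNC1* made up 90.1% of it in Chicken and 2.64% in Black duck. Of the 3 high ducks, Black duck had the earliest embryonic days of the 6 ducks and Ruddy duck the latest first day, while Pekin duck and Lesser Scaup lay between them. Wood duck, with the lowest sum, and Harlequin duck, a high species, both began at day 28. These days belong to a common stage shortly before hatching. Species and embryonic day cannot be told apart.

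Other genes of skeletal muscle were taken from lists by role, written with earlier results of these data known. Of 118 further symbols, 106 were found and 42 averaged 1 RPKM or more. Of the 42, 8 were at least 2-fold higher in Black duck (19.0%, against 2.02% of all genes). None was lower, and the share of all genes lower there was not computed. By role, the 8 were 2 of 2 further fast thick filament genes, 2 of 7 Z disc and M band genes and 2 of 8 energy genes. A further 1 of 7 was of calcium release and uptake and 1 of 8 of muscle maintenance. No gene passed among 4 further thin filament genes, 3 slow and cardiac isoforms, 2 myogenic regulators and 1 neuromuscular junction gene. That last gene, *COLQ*, was highest in Wood duck (6.97 RPKM). The limit of 1 RPKM is on the mean over all 7 species, so a gene can pass it through the species where it is then counted. Over the 6 species other than Black duck, *MYBPC1*, *MYH1G*, *MYOZ1* and *CKMT2* averaged under 1 RPKM. Counts over the 42, here and for the other species below, are thus partly built in. The 8 included *MYBPC1*, a myosin-binding protein of the thick filament (5.63 RPKM in Black duck, 1.37 RPKM in Ruddy duck, 1.38 RPKM in Harlequin duck and at most 0.347 RPKM in the others), and the myosin heavy chain *MYH1G* (16.2, 0.784 and 2.26 RPKM, and at most 0.0366 RPKM elsewhere). They also included *MYOZ1*, which binds calcineurin and α-actinin at the Z disc (6.10, 1.62 and 1.41 RPKM), and *KLHL41*, needed for sarcomere assembly (3.13, 1.16 and 3.10 RPKM). *MB*, the oxygen store myoglobin, had 7.07 RPKM in Black duck, 4.68 RPKM in Harlequin duck and 3.85 RPKM in Ruddy duck, but also 2.99 (Lesser Scaup) and 2.91 RPKM (Wood duck). *CKMT2*, the sarcomeric creatine kinase of mitochondria, was higher in Harlequin duck (3.95 RPKM) than in Black duck (2.99 RPKM) and Ruddy duck (1.19 RPKM). The remaining 2 of the 8 were *MYOZ2* and *PVALB*, which did not follow the 3 high ducks. *MYOZ2* was 4.71 RPKM in Black duck, but 2.96 (Lesser Scaup) and 1.90 RPKM (Pekin duck) stood above Harlequin duck (0.860 RPKM) and Ruddy duck (0.694 RPKM). *PVALB*, a calcium buffer that sensory neurons also make, was high in other ducks too (284 RPKM in Pekin duck and 254 RPKM in Wood duck). Of the 42 genes, 9 (21.4%) had Black, Ruddy and Harlequin duck as the 3 highest species, against 2.26% of all genes.

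In Harlequin duck 5 of the 42 were higher (11.9%, against 3.82% of all genes), namely *CKMT2*, *KLHL41*, the muscle methyltransferase *SMYD1* (5.24 RPKM), *PLN*, an inhibitor of the calcium pump, and *CSRP3*, a Z disc protein. In Ruddy duck there were 3 (7.14%, near the 5.96% of all genes), *MEF2C*, *XIRP2* and *PVALB*. In Chicken there were 4 (9.52%, against 12.9% of all genes). Black duck was the highest species for 10 of the 42 (23.8%), against 8.39% of all genes. Chicken was the highest for 13 (31.0%), and its share over all genes was not computed, so the 2 counts cannot be compared. The median difference over the 42 genes was 0.26 in Black duck, 0.23 in Harlequin duck and -0.14 in Ruddy duck, beside 2.80, 0.98 and 0.65 over the 9 members. Among abundant list genes that other cells also express, *TPM1* was 97.7 RPKM in Black duck and 86.9 RPKM in Pekin duck, and *LDHA* was 710 and 746 RPKM in these species. Genes that did not follow the members were not only of this kind. *TMOD4* of the thin filament list was 24.7 RPKM in Black duck, 21.3 RPKM in Pekin duck and 36.6 RPKM in Chicken. *LDB3* of the Z disc list was 4.47, 4.09 and 8.60 RPKM in these species, and 4.64 RPKM in Wood duck.

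A mean below 1 RPKM was found for 64 further list genes, and 32 of them (50%) were highest in Black duck, against 6.85% of all genes in that range. Among calcium release and uptake genes in this range, *CASQ2*, the calcium store calsequestrin, was at 3.74 RPKM in Black duck, 0.573 RPKM in Ruddy duck and 0.480 RPKM in Harlequin duck. Its partner *TRDN* (triadin) was at 2.93, 1.54 and 1.10 RPKM. *SLN*, *CACNG1* and *JPH2* of the same list were highest in Ruddy duck. Of the 7 genes of that list averaging 1 RPKM or more, none was highest in Black duck (8.39% of all genes were). Only *PVALB* was at least 2-fold higher there (2.02% of all genes), and the median difference was -0.08. *RYR3* was highest in Pekin duck (10.8 RPKM) and *JPH1* in Chicken (10.7 RPKM). The transcription factor gene *MYOD1*, which commits cells to the muscle fate, was listed at 0.498 RPKM in Black duck, 0.171 RPKM in Harlequin duck, 0.0346 RPKM in Chicken, 0.0190 RPKM in Ruddy duck and 0 in the other ducks. Its relatives *MYF5* and *MYF6* were at 0.218 and 0.117 RPKM in Black duck, at 0.0153 and 0.0145 RPKM in Chicken and at 0 in the 5 other ducks. *MYOG*, which acts during fusion of muscle cells, was at 0.0247 RPKM in Black duck and 0 elsewhere. Such values may rest on few reads, since the depth behind them is not known.

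Fast myosin heavy chains form a family of near-identical genes whose reads may be shared between copies, and several stand in the chicken annotation alone. *MYH1A*, *MYH1C*, *MYH1E* and *MYH1F*, listed there, were highest in Black duck, at 2.20, 1.95, 4.36 and 1.32 RPKM, and next in Harlequin duck, at 0.482, 0.261, 1.12 and 0.435 RPKM. *MYH1D*, in both annotations, was 1.66 (Black duck), 0.870 (Harlequin duck) and 0.634 RPKM (Chicken), while *MYH1B* was highest in Chicken at 0.138 RPKM and 0 in Black duck.

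Markers of other contractile cells were read beside these. Of 9 smooth muscle genes, none was at least 2-fold higher in Black duck, 2 were in Ruddy duck (*TAGLN* at 12.3 RPKM and *LMOD1* at 8.81 RPKM) and 1 in Harlequin duck (*LMOD1* at 12.6 RPKM). Of all genes 2.02%, 5.96% and 3.82% were higher in these species. The median difference of the smooth muscle genes was -0.35, 0.04 and -0.06. *MYH11*, the smooth muscle myosin, was 1.85 RPKM in Black duck and 6.28 RPKM in Ruddy duck. Of the heart list 4 genes were found, with *NPPA*, the atrial natriuretic peptide, at most 0.103 RPKM and *NKX2-5*, a cardiac transcription factor gene, at most 0.0056 RPKM in any species. *MYBPC3*, the cardiac myosin-binding protein C, reached 0.673 RPKM in Black duck, its highest level, and *RYR2*, a calcium release channel that neurons also express, lay between 6.08 and 10.1 RPKM. Of 7 connective tissue genes, 1 was at least 2-fold higher in Black duck, against 2.02% of all genes. It was *POSTN*, a matrix protein gene, at 33.8 RPKM, beside 46.1 RPKM in Ruddy duck. The median difference of the connective tissue genes was 0.26 in Black duck, 0.25 in Harlequin duck and -0.05 in Ruddy duck. In Wood duck, which had the lowest sum of the sarcomere genes, 6 of these 7 genes were at least 2-fold lower, against 2.73% of all genes, with a median of -1.27. In Pekin duck and Lesser Scaup, also low for the sarcomere genes, none was lower (1.02% and 1.07% of all genes were), and the medians were 0.10 and 0.11. The part of connective tissue in the sarcomere levels was not tested. Neuronal genes had a median difference of 0.08 in Black duck, -0.15 in Harlequin duck and 0.11 in Ruddy duck. The cells from which the sarcomere transcripts came were not tested.

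The chicken level of *TNNC1* had few companions among slow and cardiac isoforms. *MYL4*, a light chain of atrial and embryonic muscle, was 33.0 RPKM in Chicken and at most 0.419 RPKM in the ducks. The other 10 isoforms found, apart from *MYL4* and *TNNC1*, were below 1 RPKM in Chicken, among them the slow troponin gene *TNNI1* at 0.0349 RPKM, the ventricular light chain gene *MYL2* at 0.0546 RPKM and the slow myosin gene *MYH7* at 0.0971 RPKM. *CSRP3* was 40.7 RPKM in Chicken, 13.3 RPKM in Harlequin duck, 11.4 RPKM in Pekin duck and 2.96 RPKM in Black duck, an order unlike that of the fast sarcomere genes. *FLNC*, the muscle filamin, was 3.03 RPKM in Chicken and at most 0.178 RPKM in the ducks, but it is listed in the chicken annotation alone, a class with a median difference of 0.84 in Chicken.

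**Figure D3:**
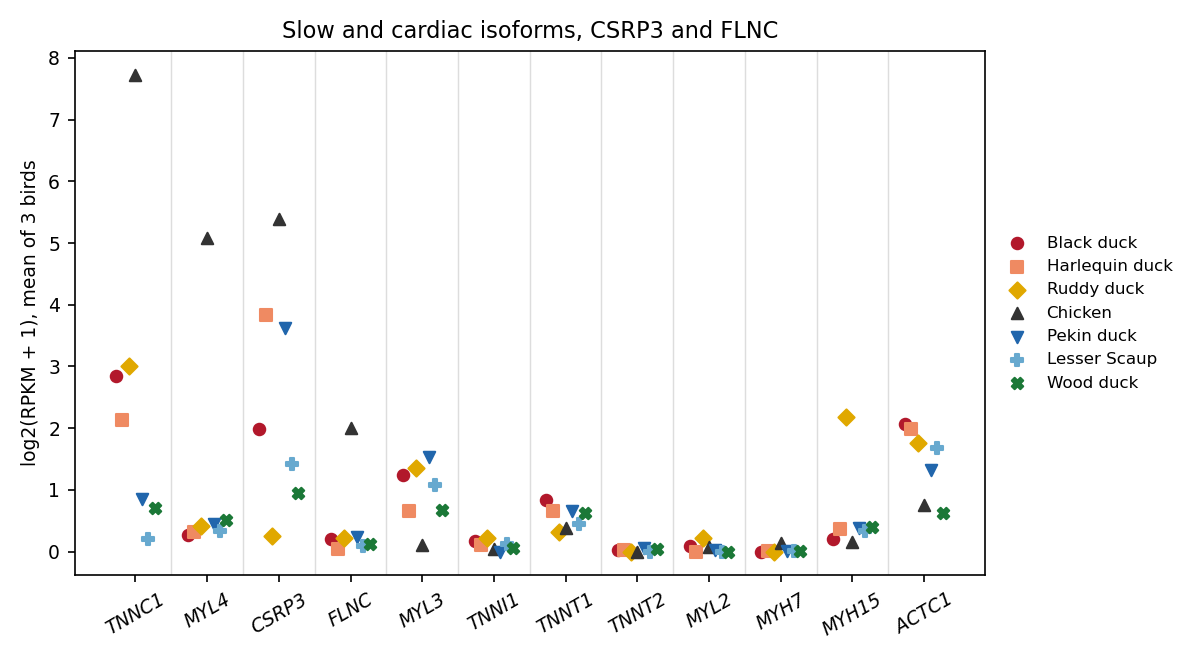
Levels of slow and cardiac isoforms, *CSRP3* and *FLNC* in each species, as log2(RPKM + 1) of the mean of 3 birds, with no error available. In Chicken (triangles), *TNNC1* at 211 RPKM and *MYL4* at 33.0 RPKM stand far above the ducks, while *TNNI1*, *TNNT1*, *TNNT2*, *MYL2* and *MYH7* are below 1 RPKM in every species.

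By the likeness of their pattern to the mean of the 9 members, over 8753 genes averaging 1 RPKM or more and a range of at least 1 on the log2 scale, the nearest named genes outside the set were *OCM2*, an oncomodulin gene of the parvalbumin family (*r* = 0.96), *GATM*, the first enzyme of creatine synthesis (*r* = 0.93), *MYBPC1* (*r* = 0.93), *IKBKAP* (*r* = 0.88), *BRIX1* (*r* = 0.86), *MRPS27* (*r* = 0.86), *ERAP1* (*r* = 0.85), *MYH1G* (*r* = 0.85), *MYOZ1* (*r* = 0.84) and *PTCD2* (*r* = 0.83). *OCM2* was 14.6 RPKM in Black duck, 5.74 RPKM in Ruddy duck, 2.26 RPKM in Harlequin duck, 1.87 RPKM in Chicken and at most 0.168 RPKM in the others. *GATM* was 7.26, 1.40, 1.41 and 0.523 RPKM in these species, in the same order, and at most 0.174 RPKM in the others. The members are part of the mean they are ranked against, so a high *r* is partly built in for them. Of the 50 genes of highest *r*, 6 were members and 5 more were on the muscle lists, which hold 0.434% of the genes ranked. Among genes averaging 5 RPKM or more, 0 of the 50 were such further list genes. *GATM*, *MYBPC1*, *MYH1G* and *MYOZ1* reached a mean of 1 RPKM only through Black duck, which also led most members. Their likeness is thus partly built in by the limit on the mean. The lists were written with earlier results of these data known.

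Genes of the sex chromosomes moved with the members in part. Of the 50 genes, 40 have a chromosome in the RefSeq annotation of the IASCAAS_PekinDuck_T2T assembly, and 22 of these (55.0%) are on chromosome Z, against 6.10% of the genes ranked, *BRIX1*, *MRPS27*, *ERAP1* and *PTCD2* among them. Female birds carry Z and W and males carry 2 copies of Z, and the sex of the embryos is not given in the labels. *CHD1W*, a gene of the W chromosome looked at after the Z genes were seen and listed in the duck annotation alone, was 0.543 RPKM in Black duck and 0.428 RPKM in Harlequin duck, but 3.71 to 6.05 RPKM in the 5 other species. Ruddy duck, with 5.04 RPKM of *CHD1W*, was among the 3 high species for sarcomere genes too. The median difference over 444 Z genes was 0.30 in Black duck, 0.26 in Harlequin duck and -0.07 in Ruddy duck. The part of the sex of the birds in the sarcomere levels was not tested.

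**Figure D4:**
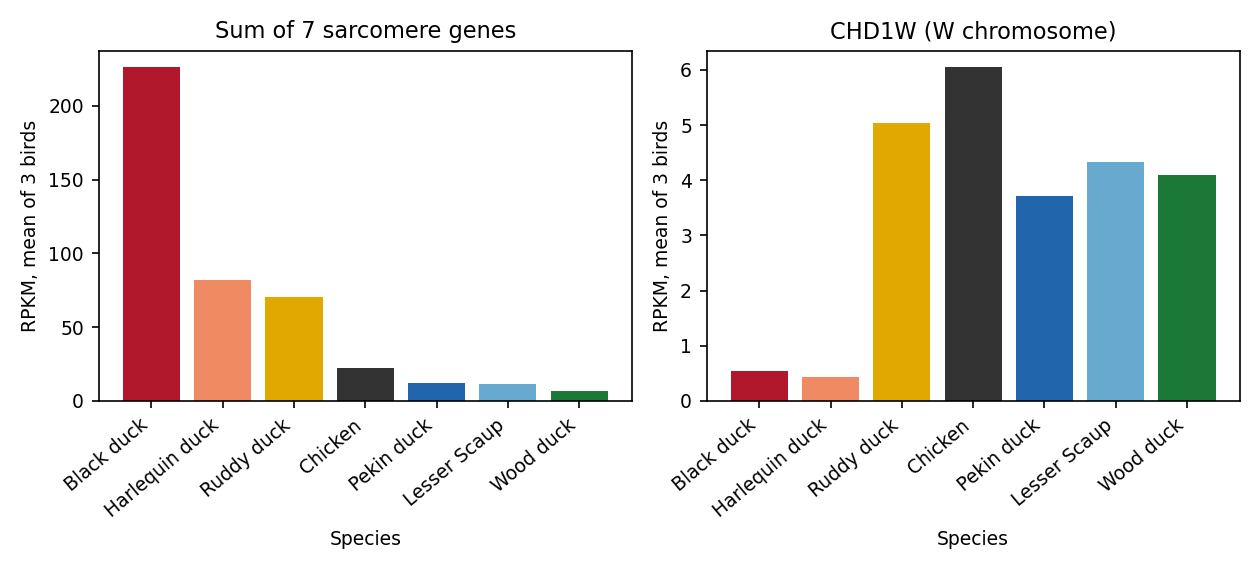
Left, summed RPKM of the 7 sarcomere genes other than *TNNC1* and *DES* in each species. Right, RPKM of the W-chromosome gene *CHD1W*, each bar the mean of 3 birds with no error available. *CHD1W* is below 1 RPKM in Black duck and Harlequin duck, 2 of the 3 species with the highest sum, and 5.04 RPKM in Ruddy duck, the third.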

How the data were processed

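Ganglia were flash-frozen, and poly(A) RNA was made into strand-specific libraries. Per the study's methods and the submitters' processing notes, reads were trimmed with Trimmomatic 0.36, aligned with STAR 2.5.4b to the duck (BGI_duck_1.0) and the chicken (GRCg6a) genome, and assigned to protein-coding genes by featureCounts (Subread 1.6.2). The authors made RPKM values with edgeR 3.22.3, merged both gene lists by symbol and deposited the mean RPKM over 3 birds for each species. Values of genes in 1 annotation alone depend on that annotation, and the depth of each library is not known from the table. Here, log2(RPKM + 1) differences, counts and correlations were computed with Python 3.11.15, pandas 2.3.3 and numpy 2.4.6, and the code was tested on simulated data. No test between species was possible with 1 value per species, and Dixon's critical values served only to pick out single species for a closer look. The 9 genes and the lists were chosen with earlier results of these data known. Genes named by rule are the members, up to 4 per list of largest range, defining markers near 0 and the 10 of most like pattern. Genes named beyond that rule (*CHD1W*, *HINTW*, *MYOD1* and other genes under 1 RPKM, further myosin heavy chains, *STMN2*, *PMP22*, *LDHA*, *TMOD4*, *LDB3*, *ACTA2*, *MYH11*, *MYL10*, and the members of counts) were chosen after their values were seen. Of 200 list symbols, 19 were not matched and not analysed here. No coordinates are given, since the reference table is of another assembly. No sequences were used.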

Additional observations from a re-analysis of the deposited data

Results flagged for a closer look

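Each member was examined for a species far from the rest, by the gap to the nearest other species as a share of the whole range, over 7 species and over the 6 ducks. Of 18 such groups, 13 passed Dixon's critical value. The usual rate of about 1 in 20 holds for normally distributed values and does not apply here, since the gaps were taken on RPKM itself. On the log2(RPKM + 1) scale the gaps of Black duck are smaller shares of the range. In *TNNC2*, for example, it had 4.75, Ruddy duck 3.06 and Lesser Scaup, the lowest, 0.212. The members also share libraries, and the 2 groups of a gene overlap. Over the 7 species, Black duck was separated by 0.721 of the range in *TNNC2*, 0.718 in *ACTN2*, 0.691 in *TNNI2*, 0.64 in *TNNT3*, 0.632 in *MYLPF*, 0.618 in *MYL1* and 0.603 in *ACTA1*. Over the ducks alone the shares were the same, since the lowest and the 2 highest species of these genes are ducks, and those of *TNNC2* (0.721), *ACTN2* (0.718), *TNNI2* (0.691), *TNNT3* (0.64) and *MYLPF* (0.632) passed the stricter limit for 6 values, while *MYL1* and *ACTA1* fell just short of it. Chicken was separated by 0.967 of the range in *TNNC1*. Whether 1 bird or all 3 birds carried these levels cannot be seen in species means.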

How the results depend on the processing

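No paired analysis was possible because the table holds 1 mean per species and no values of single birds, and for the same reason no bird could be left out. In Black duck the count of members at least 2-fold higher was 8 with a pseudocount of 0.1, against the median of the others and among the ducks alone, 7 under both scalings, 6 at 4-fold and 4 of 5 among members averaging 5 RPKM or more (1.75% of all genes at that mean). Apart from the limits on the mean, the share of all genes was not computed for the alternative settings. Its median difference was 3.79 with a pseudocount of 0.1 and 3.06 against the median of the others. In Ruddy duck the count was 6 with a pseudocount of 0.1 and 6 against the median of the others (medians 1.27 and 1.35), 0 at 4-fold and 5 without Black duck (median 1.07). In Harlequin duck the median was 1.76, 1.69 and 1.57 with the pseudocount, the median and without Black duck, and the count was 6 under these 3 settings and without Ruddy duck, 2 of 5 at a mean of at least 5 RPKM (3.69% of all genes) and 1 at 4-fold. The geometric mean over the members was 13.1 RPKM in Black duck and 3.06 RPKM in Chicken, and without *TNNC1* the chicken sum was 23.3 RPKM. At a mean of at least 5 RPKM, 0 of the 50 genes of most like pattern were further muscle-list genes. Scaling moved the median difference over all genes from -0.18 to 0.01 in Chicken and from -0.23 to -0.06 in Ruddy duck. Alternatives without Black duck, without *TNNC1* and *DES* and with members of at least 1 RPKM were chosen after seeing the data. Depth, and so the precision of values under 1 RPKM, is not known.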

Other observations

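Some striated muscle genes had patterns of their own. *XIRP2*, an actin-binding protein of muscle and hair cells, was 10.05 RPKM in Ruddy duck and at most 0.655 RPKM in the other species, and the myosin heavy chain gene *MYH15* was 3.56 RPKM in Ruddy duck and at most 0.314 RPKM in the others. The light chain gene *MYL10* was 4.06 RPKM in Ruddy duck and 4.41 RPKM in Wood duck and at most 0.516 RPKM elsewhere. *LMOD2*, a thin filament protein, was 4.21 RPKM in Wood duck and at most 0.49 RPKM in the others. Ruddy duck is among the 3 high species for the sarcomere genes, while Wood duck had the lowest sum of the 7 members other than *TNNC1* and *DES*.

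Markers of skeletal tissue varied between species as well. Among 8 cartilage and bone genes averaging 1 RPKM or more, 6 were at least 2-fold higher in Chicken (12.9% of all genes were), 3 in Ruddy duck (5.96%), 1 in Lesser Scaup (2.26%) and none in Black duck (2.02%) or Harlequin duck (3.82%). At least 2-fold lower were 4 in Pekin duck, 4 in Wood duck and 1 in Lesser Scaup, against 1.02%, 2.73% and 1.07% of all genes. In Black duck and Ruddy duck 1 each was lower, and the share of all genes lower there was not computed. *COL9A1*, a cartilage collagen, was 23.1 RPKM in Chicken and at most 1.46 RPKM in the ducks. *SPP1*, a bone matrix protein gene that other cells also express, was 81.5 RPKM in Ruddy duck, 53.7 RPKM in Chicken and at most 6.49 RPKM in the other ducks, and *IBSP*, a more bone-restricted gene, was 16.5 RPKM in Ruddy duck, 11.7 RPKM in Chicken and at most 1.08 RPKM in the others. The source of these transcripts was not tested.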
